A study of Homo sapiens with 6 samples.

Results

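Mitochondria translate the few proteins encoded by their own DNA on a ribosome of their own, whose protein parts are all made in the cytosol from nuclear genes and imported. The genes described here are most of those nuclear genes, taken as the rows of the count table whose symbol is MRPL or MRPS followed by a number, with an optional letter A to C, so that pseudogene symbols are left out. This gave 78 genes of the 35238 rows, 49 with an MRPL symbol (large subunit) and 29 with an MRPS symbol (small subunit). All 78 passed the filter on low counts that 16954 genes of the table passed.

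RNA was sequenced from 6 libraries of HAP1, an established near-haploid human cell line that descends from a chronic myeloid leukaemia line and grows attached. There were 3 libraries of untreated wildtype cells and 3 of untreated DEGS1 knockout cells, all kept in medium with 5% serum, passaged 3 times a week and collected 24 h after a passage. DEGS1 encodes the desaturase that turns dihydroceramide into ceramide, and the design compares its loss with its presence. The labels state neither how many knockout clones were used nor whether the 3 libraries of a genotype were separate cultures, so the p-values weigh the genotypes against the variation among these libraries alone, part of which may be technical. In such bulk RNA, fewer cells of a kind and less RNA per cell cannot be told apart.

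The mitochondrial ribosome descends from the bacterial one, but it has lost much of its RNA and gained proteins that bacteria lack. Its small subunit holds the mRNA and reads the codons, and its large subunit joins the amino acids and passes the new chain to the inner membrane. The products are core subunits of the respiratory chain and of ATP synthase. Symbols do not always give the place: MRPS30 and MRPS18A sit in the large subunit, and MRPS36 is a part of the 2-oxoglutarate dehydrogenase complex instead of the ribosome. A few ribosomal proteins carry other names, such as DAP3 and PTCD3 in the small subunit.

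What these genes share beyond their products was sought first in their promoters. RefSeq promoters of the build GRCh38.p14, spanning 250 bases before and 50 bases after the start of transcription, could be matched for 69 of the 78 genes. The letters CCGGAAG, the core bound by ETS factors such as GABPA, stood on either strand in 29 of the 69 (42%), against 10.7% of all 27305 promoters and 17.4% of the 11349 that belong to tested genes. The letters AAGATGGCG of the YY1 motif stood in 13 (18.8%), against 1.85% of all promoters and 3.56% of those of tested genes. The 10-base motif of NRF1, with any base at its middle, stood in 8 (11.6%), against 6.28% and 10.6%, and GGGCGG, a short SP1 motif, in 42 (60.9%), against 44.6% and 67.5%. By subunit, 17 of 42 MRPL promoters (40.5%) and 12 of 27 MRPS promoters (44.4%) held the ETS letters. The ETS letters are not particular to these genes. Among 64 promoters of cytosolic ribosomal protein genes 22 (34.4%) held the ETS letters and 5 (7.81%) the YY1 letters. The NRF1 motif stood in 6 of those 64 (9.38%) and the SP1 motif in 36 (56.2%). The ETS and YY1 letters can overlap by the AAG they share, and a match describes the letters only.

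The stretches printed here are the 120 bases just before the start, 5′ to 3′ on the gene's own strand, with ETS, YY1 and NRF1 letters in capitals. MRPL41, MRPL40 and MRPS31 are shown because their differences between genotypes are described further on. MRPL51, MRPS34, MRPL52 and MRPL36 are shown because they carry several motifs close to the start, and this choice was made with their values known.
MRPL41 (chr9:137551759-137551878, + strand): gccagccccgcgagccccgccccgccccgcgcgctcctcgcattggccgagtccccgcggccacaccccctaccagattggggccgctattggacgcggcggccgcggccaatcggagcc
MRPL40 (chr22:19432425-19432544, + strand): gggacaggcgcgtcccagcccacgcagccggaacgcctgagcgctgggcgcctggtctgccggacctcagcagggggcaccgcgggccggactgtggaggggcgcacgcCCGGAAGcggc
MRPS31 (chr13:40771191-40771310, - strand): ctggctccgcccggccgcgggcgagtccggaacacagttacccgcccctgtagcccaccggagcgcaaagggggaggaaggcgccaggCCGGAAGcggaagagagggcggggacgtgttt
MRPL51 (chr12:6493263-6493382, - strand): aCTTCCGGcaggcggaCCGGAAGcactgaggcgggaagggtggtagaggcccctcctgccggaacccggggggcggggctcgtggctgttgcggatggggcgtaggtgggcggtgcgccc
MRPS34 (chr16:1773135-1773254, - strand): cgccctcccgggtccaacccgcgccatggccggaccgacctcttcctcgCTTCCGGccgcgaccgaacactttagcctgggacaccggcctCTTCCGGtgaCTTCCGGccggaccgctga
MRPL52 (chr14:22829767-22829886, + strand): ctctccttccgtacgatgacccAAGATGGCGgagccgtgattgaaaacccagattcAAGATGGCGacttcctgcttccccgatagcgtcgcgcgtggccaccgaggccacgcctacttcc
MRPL36 (chr5:1799838-1799957, - strand): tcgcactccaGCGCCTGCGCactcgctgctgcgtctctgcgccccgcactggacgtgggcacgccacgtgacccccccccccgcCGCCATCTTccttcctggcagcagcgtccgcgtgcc

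The printed stretches differ in what they hold. MRPL41 has none of the 3 motifs in capitals, MRPL40 and MRPS31 have the ETS letters once, and MRPL51 has them on both strands. MRPS34 has 3 ETS matches, all read on the opposite strand, MRPL52 has the YY1 letters at 2 places, and MRPL36 has an NRF1 and a YY1 match. Members with the ETS letters had a median log2 fold change, knockout over wildtype (the log2 difference), of 0.12 (21 of 29 positive), and members without them 0.01 (24 of 40 positive), a description with no test. These medians were 0.22 and 0.14 without wildtype replicate 2. The ETS split was the widest of those made for the 4 motifs. Members with and without the NRF1 motif had medians of 0.01 and 0.03. For YY1 the medians were 0.04 and 0.03, and for SP1 0.03 and 0.03. Without wildtype replicate 2 they were 0.16 and 0.15 (NRF1), 0.20 and 0.15 (YY1), and 0.16 and 0.14 (SP1). Many of the genes share a promoter region: 22 of the 69 had a gene starting on the opposite strand within 1000 bases (31.9%, against 21.9% of tested genes with a promoter). MRPL46 and MRPS11 face each other at 320 bases, MRPS12 faces SARS2, the mitochondrial seryl-tRNA synthetase, at 181 bases, and MRPL49 faces FAU, a protein of the cytosolic ribosome, at 49 bases. Of 16 such partners that were tested, 1 was called at an adjusted p under 0.05 over all tested genes, EME1 opposite MRPL27, with a log2 difference of 0.50 (adjusted p = 0.0381 by edgeR), while MRPL27 itself stood at 0.03 (adjusted p = 0.914 by edgeR). The share called was 4.46% of all tested genes, and the 16 partners include the members MRPL46 and MRPS11. The call of EME1 was lost without wildtype replicate 1 or 3 or knockout replicate 1 or 3 (adjusted p from 0.082 to 0.217 by edgeR), and with library size alone (adjusted p = 0.108 by edgeR).

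Total counts ran from 17322756 to 28988522 per wildtype library and from 19389644 to 27659835 per knockout library. Levels are CPM, counts divided by the scaled library size. DEGS1 stood at 105, 123 and 95.5 CPM in wildtype and at 9.49, 6.88 and 10.4 CPM with the knockout (log2 difference -3.59 with a standard error of 0.17, adjusted p = 3.07e-07 by edgeR). Of 12 blood cell markers 6 passed the filter, namely PTPRC (a mean of 3.11 CPM in wildtype), CD34, TAL1, RUNX1, HCLS1 and CD33, while SPI1, GATA1, ITGAM, CD3E and HBB were among those that did not. TAL1 rose (29.6, 24.8 and 32.7 CPM to 53.1, 64.1 and 61.7 CPM), while RUNX1 fell (9.24 ± 2.38 CPM to 3.44 ± 0.81 CPM, SD, n = 3, without overlap) and so did HCLS1 (10.3, 19.8 and 8.68 CPM to 0.821, 1.19 and 0.911 CPM). The log2 differences were 1.04 (TAL1), -1.43 (RUNX1) and -3.72 (HCLS1), with adjusted p from 7.64e-05 to 0.00739 by edgeR. The summed level of the 6 that passed was 53.7 to 57.1 CPM in wildtype and 63.2 to 72.2 CPM in the knockout. Within that sum TAL1 alone had means of 29 CPM in wildtype and 59.6 CPM in the knockout. Of 6 epithelial markers 5 were tested and 2 were called, both lower. CLDN1 fell from 6.64, 9.36 and 6.48 CPM to 0.462, 0.612 and 0.875 CPM. EPCAM fell from 2.04, 2.82 and 1.61 CPM to 0.410, 0.306 and 0.109 CPM. KRT18, the most abundant of the 5, went the other way without overlap, from a mean of 51.1 CPM to 70.8 CPM. Its log2 difference was 0.47 (adjusted p = 0.0794 by edgeR). KRT8 stood at 0.21 and CDH1 at -0.20 on the log2 scale (adjusted p of 0.81 and 0.774 by edgeR). Of 6 mesenchymal markers PRRX1 fell (6.17, 3.53 and 6.11 CPM to 0.257, 0.421 and 0.0729 CPM), while VIM (415, 457 and 391 CPM to 754, 623 and 758 CPM) and ZEB1 (38.7, 50.8 and 36.9 CPM to 58.2, 65.2 and 60.2 CPM) rose. Their log2 differences were -3.50 (CLDN1), -3.01 (EPCAM), -4.38 (PRRX1), 0.76 (VIM) and 0.54 (ZEB1), with adjusted p from 4.78e-05 to 0.04 by edgeR. The call of VIM was lost without wildtype replicate 1, knockout replicate 1 or knockout replicate 3 (adjusted p from 0.0623 to 0.0841 by edgeR), and that of ZEB1 without any 1 library but wildtype replicate 2 (adjusted p from 0.0893 to 0.188 by edgeR). The part of these markers in the results was not tested.

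Wildtype replicate 2 stood apart from the other wildtype libraries in these genes, and not in these alone. It was the highest of the 3 wildtype libraries for 74 of the 78, against 43.1% of all tested genes. Among genes in the same range of levels as the members it was highest for 5213 of 8502. This was so for 81 of 82 cytosolic ribosomal protein genes and 17 of 31 genes for assembly of the mitochondrial ribosome. For 71 of the 78 wildtype replicate 2 lay inside or above the range of the knockout libraries. The share was 69.1% of all tested genes, and 6427 of the 8502. Values without it are therefore given beside the results it moves most. These values keep knockout replicate 2, in which GC-rich genes were low as in wildtype replicate 2 (medians given further on). The genotypes are thus less alike in GC trend there, and the part of this in the values was not tested.

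No mitochondrial ribosomal protein gene differed between genotypes at the threshold, an adjusted p under 0.05. Genes were tested with edgeR's quasi-likelihood test and p-values were adjusted by Benjamini and Hochberg's method over all 16954 genes. The test called 0 of the 78, while it called 4.46% of all tested genes, 1.51% higher and 2.95% lower in the knockout. DESeq2 and limma voom also called 0, with a smallest adjusted p of 0.0665 (DESeq2) and 0.106 (limma). At an unadjusted p under 0.05 edgeR found 3 members higher and 0 lower, against 6.69% and 9.81% of all tested genes (16.5% in either direction). The libraries of the genotypes did not overlap for 6 members that were higher and 4 that were lower in the knockout, against 9.24% and 11.6% of all tested genes (20.8% in either direction). All 6 of the higher ones are of the large subunit by symbol (MRPL41, MRPL40, MRPL23, MRPL43, MRPL33 and MRPL28), and the 4 lower ones are MRPL16, MRPL57, MRPS31 and MRPS25. Over the 78 members each of these shares lies under that of all tested genes. Among MRPL genes alone, 6 of 49 were higher without overlap, a share above the 9.24% of all tested genes. It was near that of the genes in the same range of levels (991 of 8502).

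The differences were small and mostly positive. The log2 difference, knockout over wildtype, was above 0 for 54 of the 78 and below 0 for 24. It was above 0 for 47.3% of all tested genes and for 4737 of the 8502 genes in the same range of levels. The median was 0.04 over the 78, beside -0.02 over all tested genes and 0.03 over the 8502. The 49 MRPL genes had a median of 0.11 (39 positive, -0.25 to 0.41) and the 29 MRPS genes one of 0.01 (15 positive, -0.25 to 0.25). The MRPL median was positive in every alternative that refitted the genes (0.05 to 0.22). The MRPS median fell below 0 with upper-quartile scaling (-0.01), with library size alone (-0.03) and with length and GC trends removed (-0.03). It was also below 0 with chromosome medians removed (-0.01) and without wildtype replicate 1, wildtype replicate 3 or knockout replicate 3 (-0.03, -0.04 and -0.01). With library size alone 37 of the 78 differences were positive, and with RLE size factors 59, so the balance of higher to lower members depends on the scaling. That change of scaling moved the median of all tested genes from 0.00 with RLE to -0.07 with library size alone. The standard error of a single gene was 0.0978 to 0.174, and the 95% interval of the difference stayed within 1.5-fold either way for 76 members, all but MRPL41 and MRPL40, and within 2-fold for all 78.

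**Figure D1:**
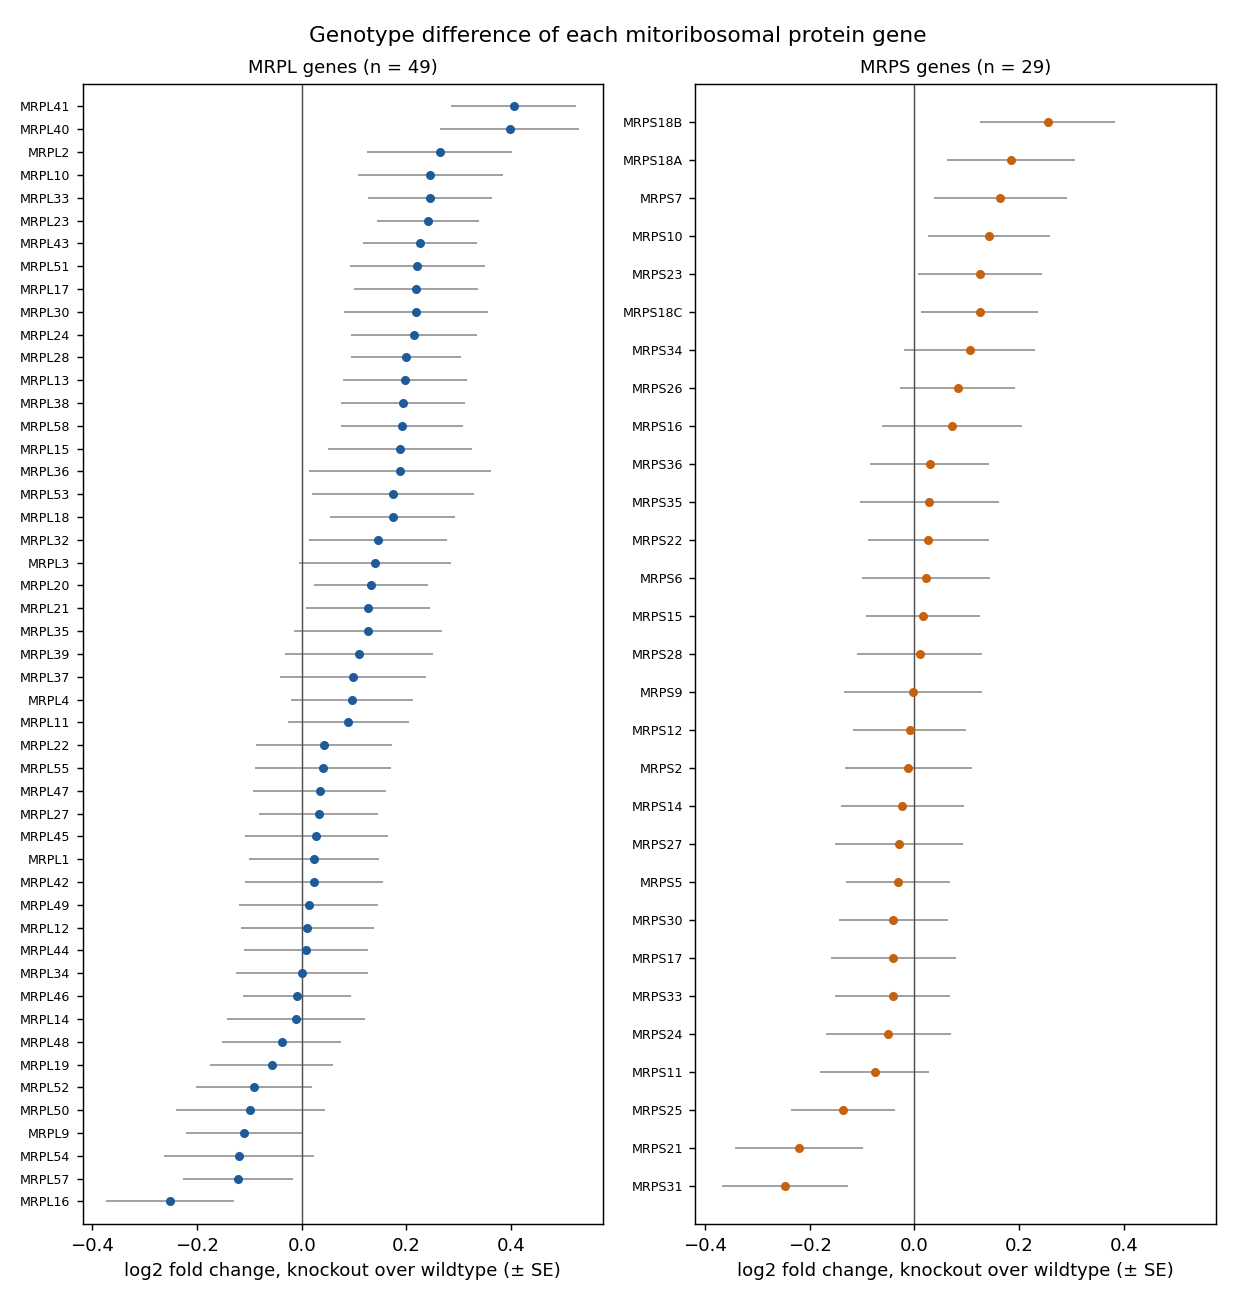
Log2 fold change of each of the 78 genes, knockout over wildtype (x axis), with bars of ± 1 standard error from edgeR, for 49 MRPL genes (left, blue) and 29 MRPS genes (right, orange) in order of their value. Most MRPL genes lie to the right of 0, up to MRPL41 at 0.41, and MRPS genes lie on either side, from MRPS31 at -0.25 to MRPS18B at 0.25.

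Among the wildtype libraries most members were high or low together. Taking each gene's log2 level minus its mean over the 6 libraries, the median over the 78 genes was -0.12, 0.16 and -0.17 in wildtype replicates 1, 2 and 3 and 0.00, 0.06 and 0.05 in the knockout libraries. The spread between wildtype libraries thus exceeded the distance between the genotypes, and the knockout libraries all lay inside the wildtype range. Wildtype replicate 2 held the highest level of 50 of the 78 genes and wildtype replicate 3 the lowest level of 47. Genes in the same range of levels moved the same way but less, with medians of -0.04, 0.07 and -0.07 in wildtype and -0.01, 0.04 and 0.01 in the knockout. Cytosolic ribosomal protein genes moved further, with -0.18, 0.21 and -0.26 in wildtype and -0.02, 0.15 and 0.11 in the knockout.

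Transcript length and GC content moved with the libraries too. The members are short, with a median transcript of 1274 nt against 2782 nt over all tested genes. Over the 25% of genes with the shortest transcripts the library medians were -0.06, 0.04 and -0.08 in wildtype and 0.03, 0.01 and 0.05 in the knockout, and over the 25% with the longest they were 0.06, -0.06 and 0.09 in wildtype and -0.04, 0.01 and -0.07 in the knockout. Over the 25% of genes richest in GC the library medians were 0.0449, -0.1498 and 0.0859 in wildtype. In the knockout they were 0.1298, -0.115 and -0.0033, so replicate 2 was the lowest library of each genotype. With the trend on length and GC content removed, 40 of the 78 differences were positive with a median of 0.01, the MRPL median was 0.08, and 0 members were called.

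**Figure D2:**
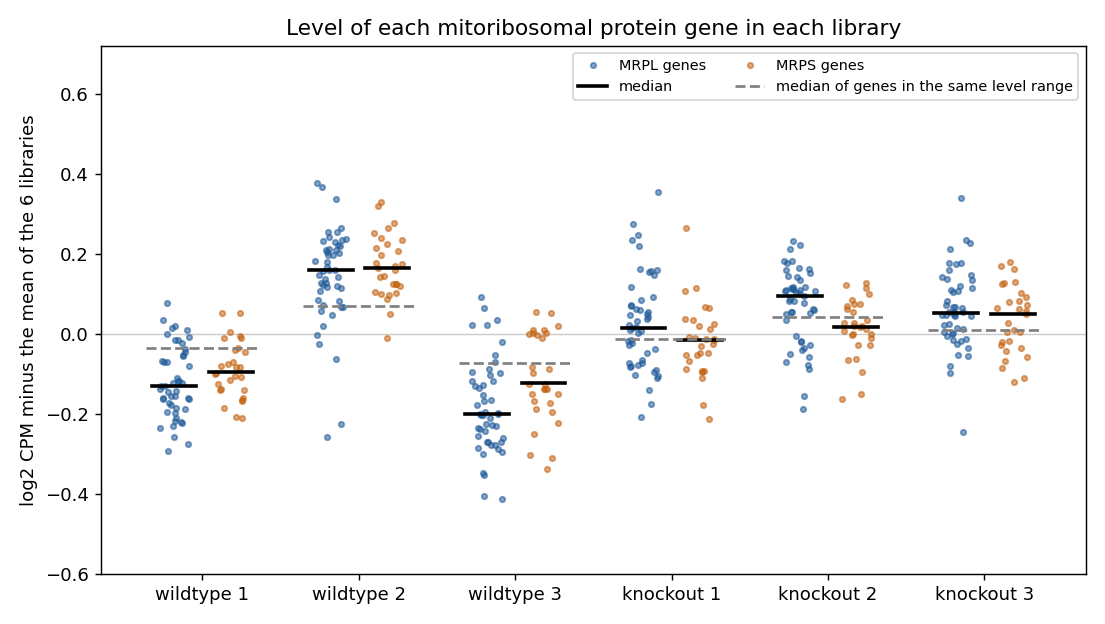
Level of each gene in each library (y axis, log2 CPM minus the gene's mean over the 6 libraries), MRPL genes in blue and MRPS genes in orange, with their medians as black bars and the median of the 8502 genes in the same level range dashed. Wildtype replicate 2 has the highest medians (0.16 for each subunit) and wildtype replicate 3 the lowest (-0.20 for MRPL, -0.12 for MRPS), with the knockout libraries between them.

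The balance between subunits needs no scaling of the libraries, since a ratio of counts within a library cancels it. Counts of all MRPL genes over counts of all MRPS genes came to 1.512, 1.559 and 1.473 in the wildtype libraries and to 1.579, 1.637 and 1.589 in the knockout libraries. Each knockout ratio was above each wildtype ratio. With the genes sorted by their place in the ribosome (MRPS30 and MRPS18A moved to the large subunit, MRPS36 left out) the ratios were 1.747, 1.780 and 1.706 in wildtype and 1.812, 1.881 and 1.819 in the knockout, again without overlap. The distance between the nearest libraries was smaller than the range within either genotype. The MRPL genes are shorter than the MRPS genes, with median transcripts of 1162 and 1500 nt, and the part of length in the ratio was not tested. All 78 genes together took 0.497, 0.534 and 0.493% of all counts in the wildtype libraries and 0.512, 0.507 and 0.527% in the knockout libraries, with overlap between the genotypes.

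Sorted by origin, the 30 proteins of the large subunit with a bacterial homolog had a median log2 fold change of 0.14 (26 positive) and the 20 that are particular to mitochondria 0.03 (13 positive). In the small subunit the 16 with a bacterial homolog stood at -0.01 (7 positive) and the 9 particular to mitochondria at 0.03 (5 positive). Leaving out wildtype replicate 2 gave medians of 0.27 and 0.15 in the large and 0.11 and 0.13 in the small subunit, with 13 of the 16 and 7 of the 9 positive in the latter. The origin of MRPL55 and MRPS28 was not assigned, and MRPS36 was left out. Differences between these groups were not tested.

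Among large subunit genes MRPL41 differed most. Its product, found in mitochondria but not in bacteria, has also been described as a partner of BCL2. MRPL41 stood at 21.4, 21 and 21.7 CPM in wildtype and at 31.4, 25.9 and 27.7 CPM in the knockout, so that the groups did not overlap. Its log2 difference was 0.41 with a standard error of 0.12 (adjusted p = 0.0899 by edgeR). Unlike 74 of the other members it was not highest in replicate 2 among the wildtype libraries, and its difference was nearly the same without that library (0.40, adjusted p = 0.0327 by edgeR). Over the 18 alternatives its difference ran from 0.31 to 0.47, and only 1 of them called it. The adjusted p by edgeR was highest, at 0.355, with length and GC trends removed, where the difference was 0.31. Its transcript is rich in GC (71.9%).

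MRPL40, a mitochondria-specific protein whose gene lies in the chromosome 22 region lost in DiGeorge syndrome, stood at 42.8, 54.2 and 39.1 CPM in wildtype and at 55.2, 58.7 and 65.5 CPM in the knockout. The groups did not overlap, with wildtype replicate 2 just under the lowest knockout library. The log2 difference was 0.40 with a standard error of 0.13 (adjusted p = 0.142 by edgeR), and 0.55 without wildtype replicate 2 (adjusted p = 0.00289 by edgeR). With length and GC trends removed it was 0.36 (adjusted p = 0.224 by edgeR). HIRA, the gene that starts 812 bases away on the other strand, stood at -0.05 (adjusted p = 0.875 by edgeR).

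MRPL23, the homolog of a bacterial protein at the exit of the peptide tunnel, stood at 40.6, 43.5 and 41.4 CPM in wildtype and at 50.6, 50.2 and 47.6 CPM in the knockout. All knockout libraries were higher, and the log2 difference was 0.24 with a standard error of 0.10 (adjusted p = 0.235 by edgeR), and without wildtype replicate 2 it was 0.28 (adjusted p = 0.0461 by edgeR). MRPL43, a mitochondria-specific protein, stood at 29.8, 33.8 and 29 CPM in wildtype and at 36.9, 34.7 and 36.6 CPM in the knockout. Its log2 difference was 0.23 with a standard error of 0.11 (adjusted p = 0.329 by edgeR), and 0.30 without that library (adjusted p = 0.0486 by edgeR). MRPL33, a small protein with a bacterial homolog, stood at 28.6, 37.1 and 31.2 CPM in wildtype and at 39.2, 38.0 and 37.7 CPM in the knockout, a log2 difference of 0.25 with a standard error of 0.12 (adjusted p = 0.331 by edgeR), and 0.36 without that library (adjusted p = 0.0226 by edgeR). In MRPL43 and MRPL33 the gap between wildtype replicate 2 and the lowest knockout library was under 1 CPM. With length and GC trends removed MRPL23, MRPL43 and MRPL33 stood at 0.16, 0.18 and 0.16 (adjusted p from 0.341 to 0.51 by edgeR).

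MRPL16, the homolog of a bacterial protein close to the site where peptide bonds form, went the other way. It stood at 76.7, 97.9 and 74.8 CPM in wildtype and at 72.1, 66.6 and 70.9 CPM in the knockout, without overlap. Its log2 difference was -0.25 with a standard error of 0.12 (adjusted p = 0.337 by edgeR). Without wildtype replicate 2 the difference was -0.11 (adjusted p = 0.364 by edgeR), so most of it rests on that library.

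**Figure D3:**
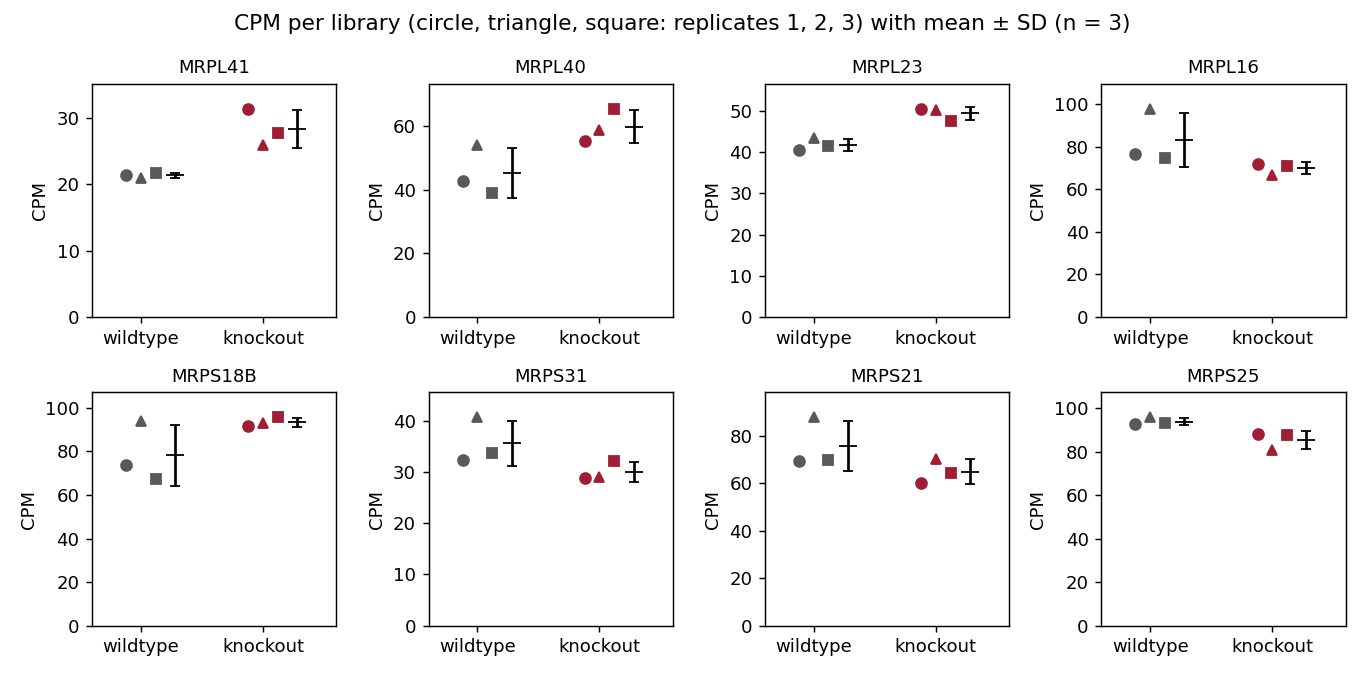
CPM in each library (y axis, from 0; circle, triangle and square for replicates 1, 2 and 3) with the mean ± SD of 3 libraries, for 4 MRPL genes (top) and 4 MRPS genes (bottom), wildtype in grey and knockout in red. The groups separate in MRPL41, MRPL40, MRPL23, MRPL16, MRPS31 and MRPS25, and the wildtype triangle lies above the other wildtype libraries in each gene except MRPL41.

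Small subunit genes gave no unadjusted p under 0.05. MRPS31, a mitochondria-specific protein, stood at 32.4, 40.7 and 33.8 CPM in wildtype and at 28.8, 29.1 and 32.2 CPM in the knockout, without overlap. Its log2 difference was -0.25 with a standard error of 0.12 (adjusted p = 0.337 by edgeR), and -0.13 without wildtype replicate 2 (adjusted p = 0.379 by edgeR). The gene lies on chromosome 13, where the median gene stood 0.34 lower on the log2 scale in the knockout than in wildtype, and with chromosome medians removed its difference was 0.10 (adjusted p = 0.73 by edgeR). Counts of the pseudogenes MRPS31P5 and MRPS31P4 came to 31.3 and 18.7% of those of MRPS31, so reads could have been split among these copies. Their sequences were not compared. MRPS31P5 and MRPS31P4 were also lower in the knockout without overlap, by -0.17 and -0.35 on the log2 scale (adjusted p of 0.619 and 0.438 by edgeR).

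MRPS18B is 1 of 3 human paralogs of the bacterial protein S18, together with MRPS18A and MRPS18C. MRPS18B stood at 73.6, 93.9 and 67.2 CPM in wildtype and at 91.6, 92.9 and 95.6 CPM in the knockout. Wildtype replicate 2 lay among the knockout libraries and the other wildtype libraries lay below all of them. The log2 difference was 0.25 with a standard error of 0.13 (adjusted p = 0.356 by edgeR), and 0.41 without that library (adjusted p = 0.0062 by edgeR). MRPS18A, the paralog in the large subunit, stood at 29.9, 33.9 and 25.5 CPM in wildtype and at 33.1, 33.9 and 34.6 CPM in the knockout (log2 difference 0.18 with a standard error of 0.12, adjusted p = 0.499 by edgeR). MRPS18C stood at 53.0, 63.9 and 54.6 CPM in wildtype and at 59.2, 60.4 and 67.4 CPM in the knockout (log2 difference 0.12 with a standard error of 0.11, adjusted p = 0.624 by edgeR). MRPS18A stood at 0.29 and MRPS18C at 0.22 without wildtype replicate 2, with adjusted p of 0.0722 and 0.108 by edgeR. With all libraries the 3 paralogs had positive differences, none past the threshold, and per kb of transcript MRPS18B was the highest at 56.0 CPM, ahead of MRPS18C at 36.4.

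MRPS21, the homolog of bacterial S21, stood at 69.6, 87.9 and 69.8 CPM in wildtype and at 60.3, 70.5 and 64.3 CPM in the knockout. The groups overlapped by the knockout replicate 2 library, and the log2 difference was -0.22 with a standard error of 0.12 (adjusted p = 0.405 by edgeR), or -0.09 without wildtype replicate 2. MRPS25, a mitochondria-specific protein, stood at 92.7, 95.7 and 92.9 CPM in wildtype and at 87.9, 80.5 and 87.7 CPM in the knockout. Its groups did not overlap, but the log2 difference was only -0.14 with a standard error of 0.10 (adjusted p = 0.539 by edgeR). MRPS7, the homolog of a bacterial protein that organises the head of the small subunit, stood at 74.0, 92.0 and 66.0 CPM in wildtype and at 85.3, 88.7 and 86.2 CPM in the knockout (log2 difference 0.16 with a standard error of 0.13, adjusted p = 0.566 by edgeR). Without wildtype replicate 2, which was the highest of the 6, it stood at 0.31 (adjusted p = 0.0252 by edgeR).

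The stalk of the large subunit, which binds translation factors, is built from MRPL10, MRPL11 and MRPL12. MRPL10, the anchor of the stalk, stood at 31.5, 41.6 and 28.8 CPM in wildtype and at 38.4, 39.6 and 43.0 CPM in the knockout (log2 difference 0.25 with a standard error of 0.14, adjusted p = 0.417 by edgeR), and without wildtype replicate 2 the difference was 0.42 (adjusted p = 0.0131 by edgeR). MRPL11 stood at 58.1, 67.9 and 51.7 CPM in wildtype and at 63.0, 63.3 and 62.9 CPM in the knockout (log2 difference 0.09 with a standard error of 0.12, adjusted p = 0.745 by edgeR). MRPL12, also described as a partner of the mitochondrial RNA polymerase, stood at 22.2, 28.2 and 27.0 CPM in wildtype and at 28, 25.2 and 24.9 CPM in the knockout (log2 difference 0.01 with a standard error of 0.13, adjusted p = 0.975 by edgeR). The groups overlapped in all 3. MRPL11 stood at 0.20 and MRPL12 at 0.09 on the log2 scale without wildtype replicate 2, with adjusted p of 0.12 and 0.636 by edgeR.

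Although the ribosome holds most of its proteins in equal number, their mRNA levels per kb of transcript spanned 11.2 to 234 CPM, with a median of 39.8 for MRPL and 49.7 for MRPS genes. MRPL42 led at 234 CPM per kb, with 199, 246 and 196 CPM in wildtype and 199, 228 and 225 CPM in the knockout. MRPL20, the homolog of bacterial L20, followed at 139 CPM per kb, with 91.2, 106 and 89.9 CPM in wildtype and 106, 108 and 100 CPM in the knockout. MRPL3, the homolog of bacterial L3, came next at 130 CPM per kb, with 188, 257 and 185 CPM in wildtype and 220, 242 and 232 CPM in the knockout. In MRPL42 and MRPL3 wildtype replicate 2 was the highest of the 6 libraries. At the low end of the large subunit stood MRPL2, a homolog of a core bacterial protein, at 15.3 CPM per kb, with 21.2, 25.3 and 19.9 CPM in wildtype and 28.4, 23.0 and 28.4 CPM in the knockout. MRPL22, the homolog of a protein that lines the peptide tunnel, stood at 11.8 CPM per kb, with 33.9, 44.5 and 32.4 CPM in wildtype and 36.7, 38.7 and 38.7 CPM in the knockout. The lowest was the mitochondria-specific MRPL53 at 11.2 CPM per kb, with 12.7, 10.8 and 13.1 CPM in wildtype and 15.6, 12.4 and 13.3 CPM in the knockout. The log2 differences of these 6 genes were 0.02 (MRPL42), 0.13 (MRPL20), 0.14 (MRPL3), 0.26 (MRPL2), 0.04 (MRPL22) and 0.17 (MRPL53), with adjusted p from 0.377 to 0.948 by edgeR, and the groups overlapped in each. Without wildtype replicate 2 MRPL3 stood at 0.32 (adjusted p = 0.0264 by edgeR). The others were then 0.14 (MRPL42), 0.22 (MRPL20), 0.38 (MRPL2), 0.20 (MRPL22) and 0.09 (MRPL53), with adjusted p from 0.0514 to 0.667 by edgeR.

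Among MRPS genes MRPS15 was highest per kb at 86.5 CPM, with 82.5, 96.0 and 81.2 CPM in wildtype and 88.1, 83.2 and 91.4 CPM in the knockout. MRPS30 followed at 69.6 CPM per kb, with 114, 124 and 117 CPM in wildtype and 113, 119 and 114 CPM in the knockout. MRPS34, a mitochondria-specific protein, stood at 60.7 CPM per kb, with 53.4, 64.0 and 62.2 CPM in wildtype and 74.3, 61.8 and 57.3 CPM in the knockout. The lowest per kb were MRPS25 at 19.5, MRPS14 at 16.7 and MRPS23 at 16.7 CPM. MRPS14, the homolog of bacterial S14, had 35.4, 39.9 and 31.8 CPM in wildtype and 32.7, 35.3 and 37.3 CPM in the knockout. MRPS23, a mitochondria-specific protein, had 83.1, 104 and 81.3 CPM in wildtype and 95.6, 98.1 and 99.3 CPM in the knockout, and was called without wildtype replicate 2 (0.25, adjusted p = 0.0448 by edgeR). With all libraries the log2 differences were 0.02 (MRPS15), -0.04 (MRPS30), 0.11 (MRPS34), -0.02 (MRPS14) and 0.13 (MRPS23), with adjusted p from 0.642 to 0.955 by edgeR. Leaving out wildtype replicate 2 gave 0.10 (MRPS15), 0.00 (MRPS30), 0.16 (MRPS34) and 0.07 (MRPS14), and neither of the negative differences stayed below 0. In CPM without length MRPS23 and MRPS25 were not low, at 89.5 ± 12.7 and 93.8 ± 1.67 CPM (SD, n = 3) in wildtype. Their place at the low end per kb comes with long transcript models, 4586 nt in MRPS25, and the transcript that HAP1 cells use was not measured.

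**Figure D4:**
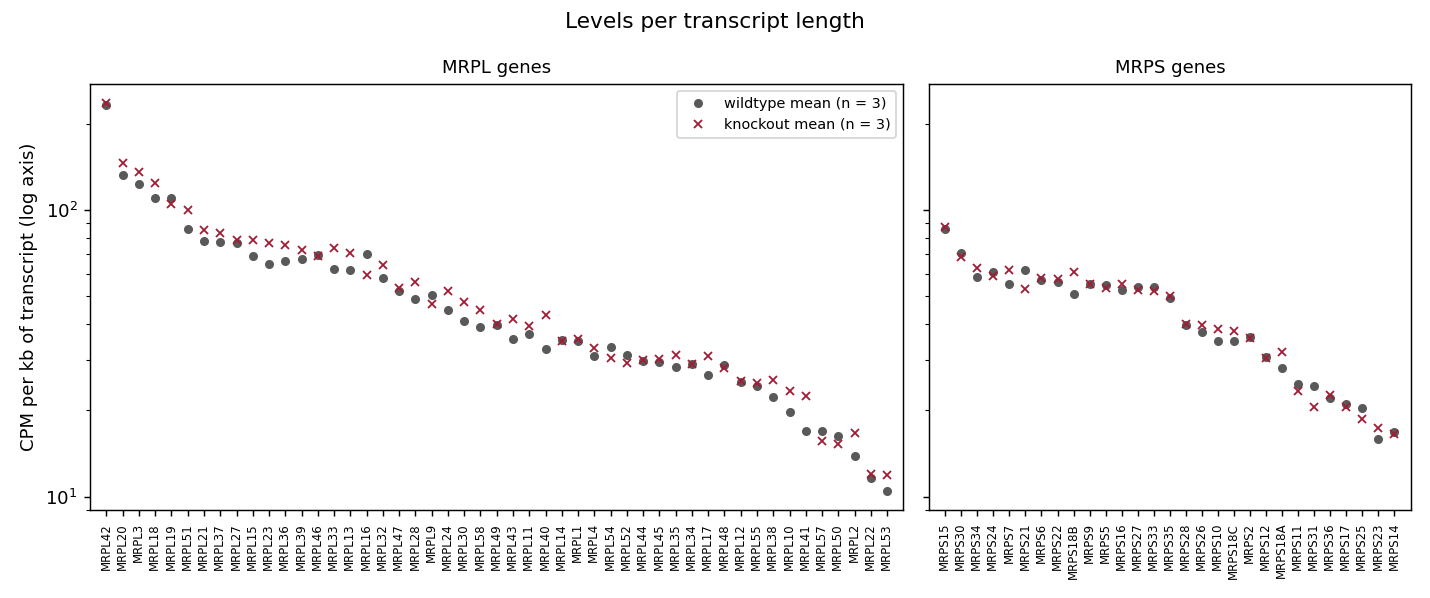
Mean CPM per kb of transcript (y axis, log scale) of each gene in wildtype (grey circles) and knockout (red crosses), MRPL genes left and MRPS genes right in order of their level, each a mean of 3 libraries. Levels run from 234 for MRPL42 to 11.2 for MRPL53, and the circle and cross of a gene lie close together.

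Leaving out wildtype replicate 2 changed the count of called members from 0 to 21, all higher in the knockout. In that comparison of 2 wildtype with 3 knockout libraries edgeR called 22.1% of 17305 tested genes, 10.6% higher and 11.5% lower. Knockout replicate 2, with its low median of GC-rich genes, stayed in. Whether the calls depend on that imbalance was not tested. Of the 21, 18 are MRPL genes (MRPL3, MRPL10, MRPL13, MRPL15, MRPL17, MRPL18, MRPL23, MRPL24, MRPL30, MRPL32, MRPL33, MRPL35, MRPL36, MRPL38, MRPL40, MRPL41, MRPL43 and MRPL51) and 3 are MRPS genes (MRPS7, MRPS18B and MRPS23). MRPL40 had the smallest adjusted p there (adjusted p = 0.00289 by edgeR) and MRPL35 the largest (adjusted p = 0.0493 by edgeR). The median log2 difference of the 78 was then 0.16, with 0.22 for MRPL and 0.12 for MRPS genes, and 67 of the 78 were positive. Cytosolic ribosomal protein genes, at 0.31 with 46 of 82 called higher, went further in that comparison. None of the other 17 alternatives called a member in either direction.

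Position in the genome touched a few members. The 78 genes lie on 21 chromosomes, with at most 8 on one. Chromosomes 13, 14 and 16 had median differences of -0.34, -0.19 and -0.16 on the log2 scale between knockout and wildtype over their expressed genes. MRPL57 on chromosome 13 stood at -0.12 and at 0.22 with chromosome medians removed, and MRPL52 on chromosome 14 at -0.09 and 0.10. MRPL57 and MRPL52 stood at -0.06 and -0.04 without wildtype replicate 2. MRPL28 on chromosome 16, the homolog of a bacterial large subunit protein, stood at 0.20 and 0.35, and MRPS34 on the same chromosome at 0.11 and 0.26. MRPL28 had 50.7, 57.3 and 52.9 CPM in wildtype and 66.8, 58.8 and 59.2 CPM in the knockout, without overlap (adjusted p = 0.382 by edgeR).

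Counting could blur some members. The table has 73 rows of pseudogenes of these genes, 32 of them with a count and 5 with over 1% of the counts of their gene. After the MRPS31 copies the largest were MRPS17P1 (7.96% of MRPS17), MRPS18AP1 (6.68% of MRPS18A) and MRPL53P1 (2% of MRPL53). In GENCODE release 29, exons of 41 members overlap exons of some other gene and those of 16 a gene on the same strand. Exons of 26 members overlap those of a gene with a row of its own in the table, and values of these members are uncertain. Whether reads were counted by strand is not given in the sources used here. On the opposite strand are, among others, SEMA4G (MRPL43), RSPH9 (MRPS18A), NR2C2 (MRPS25), GGA3 and MIF4GD (MRPS7), KLC4 (MRPL2), PELI3 (MRPL11) and CACYBP (MRPS14). On the same strand are, among others, TMEM8A (MRPL28) and CCDC142 (MRPL53), which counting by strand would not separate.

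The rest of the mitochondrial translation apparatus was described from gene lists. The 5 ribosomal proteins with other names (DAP3, CHCHD1, AURKAIP1, PTCD3 and GADD45GIP1) had a median log2 fold change of 0.04 (0.19 without wildtype replicate 2) and 0 calls. AURKAIP1 had the smallest p of them, with 48.2, 55.9 and 46.3 CPM in wildtype and 57.8, 56.5 and 53.2 CPM in the knockout (0.15, adjusted p = 0.524 by edgeR), and 0.24 without wildtype replicate 2 (adjusted p = 0.0694 by edgeR). Of 31 genes for assembly of the ribosome and modification of its RNA, 1 was called and 18 were positive, with a median of 0.06 (0.10 and 23 positive without wildtype replicate 2). That gene was FASTKD2, an RNA-binding protein needed for the large mitochondrial ribosomal RNA. FASTKD2 fell from 34.7, 24.6 and 40.1 CPM in wildtype to 0.257, 0.153 and 0.364 CPM in the knockout, 2292 against 19 counts over the 3 libraries of each genotype. Its log2 difference was -6.96 with a standard error of 0.30 (adjusted p = 1.33e-07 by edgeR), and it was called in all 18 alternatives. It is the exception in a list whose other 30 genes lay between -0.33 and 0.38.

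Among 18 translation factors 0 were called, with a median of -0.05 and 6 positive. Without wildtype replicate 2 the median was 0.06 with 11 positive, 1 called higher and 2 lower, so the direction of this list turned on that library. The smallest p belonged to PDF, the enzyme that removes the formyl group from new mitochondrial proteins, which stood at 4.64, 4.27 and 4.39 CPM in wildtype and at 2.36, 2.79 and 2.00 CPM in the knockout. All knockout libraries were lower, and the log2 difference was -0.89 with a standard error of 0.23 (adjusted p = 0.0552 by edgeR), just short of the threshold, and 5 of the 18 alternatives called it, among them the fit without wildtype replicate 2 (adjusted p = 0.0145 by edgeR). Among 22 genes for tRNA charging 0 were called, with a median of 0.05 and 15 positive (0.12 and 17 without wildtype replicate 2). CARS2, the cysteinyl-tRNA synthetase, had the smallest p there, with 66.9, 61.0 and 64.4 CPM in wildtype and 54.5, 47.0 and 52.3 CPM in the knockout (log2 difference -0.32 with a standard error of 0.10, adjusted p = 0.126 by edgeR). It lies on chromosome 13 and stood at 0.02 with chromosome medians removed. CARS2 was called without wildtype replicate 2 (-0.35, adjusted p = 0.0191 by edgeR). Among 16 genes of mitochondrial DNA expression 0 were called (median 0.03 with 10 positive, and 0.12 with 12 positive without wildtype replicate 2). The smallest p there was that of TFB2M, a mitochondrial transcription factor, with 37.6, 46.8 and 35.5 CPM in wildtype and 34.5, 39.2 and 32.7 CPM in the knockout (-0.17, adjusted p = 0.545 by edgeR, and -0.04 without that library). Among 22 genes of protein import 0 were called (median 0.06 with 16 positive, and 0.21 with 19 positive without wildtype replicate 2). PMPCA, a subunit of the peptidase that cuts off import signals, had the smallest p there, with 91.9, 102 and 84.7 CPM in wildtype and 117, 103 and 121 CPM in the knockout (0.29, adjusted p = 0.225 by edgeR), and was called without wildtype replicate 2 (0.37, adjusted p = 0.0184 by edgeR).

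The 13 mRNAs encoded in mitochondrial DNA, the templates of this ribosome, had a median log2 fold change of -0.10, with 3 positive and 0 called. Without wildtype replicate 2 the median was -0.04, with 6 positive and 1 called higher. MT-ATP6, a subunit of ATP synthase, had the smallest p and stood at 202, 231 and 221 CPM in the wildtype and 189, 190 and 177 CPM in the knockout libraries. The groups did not overlap, and the log2 difference was -0.23 with a standard error of 0.12 (adjusted p = 0.348 by edgeR). The ribosomal RNAs MT-RNR1 and MT-RNR2 were not analysed here.

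Of 9 nuclear regulators of mitochondrial genes 1 was called and 2 were positive, with a median log2 difference of -0.17 (-0.15 without wildtype replicate 2, with 4 called lower). PPARGC1A, the coactivator PGC-1alpha, fell from 1.10, 0.966 and 1.07 CPM in wildtype to 0.462, 0.306 and 0.292 CPM in the knockout. These low levels rest on 74 and 25 counts in all, and the log2 difference was -1.58 with a standard error of 0.38 (adjusted p = 0.0392 by edgeR). It was called in 9 of 17 alternatives, not with library size alone, not at the threshold of 0.01 and not in DESeq2 (adjusted p = 0.0845). The call was also lost without wildtype replicate 1, wildtype replicate 3 or any 1 knockout library (adjusted p from 0.0893 to 0.226 by edgeR). SP1 was not among these 9 regulators. The others whose motifs were sought in the promoters did not pass the test: NRF1 stood at 0.00, GABPA at 0.02 and GABPB1 at -0.01 on the log2 scale, and YY1 at -0.17 (adjusted p from 0.477 to 0.999 by edgeR). YY1 was lower in the knockout without overlap (147 ± 4.31 CPM to 131 ± 3.57 CPM, SD, n = 3). Beside them, 37 complex I subunits had a median of 0.08 with 32 positive (0.19 and 34 without wildtype replicate 2) and 1 called, NDUFC2, which rose from 101, 114 and 97.6 CPM to 162, 146 and 152 CPM, by 0.56 on the log2 scale (adjusted p = 0.0166 by edgeR, called in 13 of 18 alternatives). Its call was lost without wildtype replicate 1, wildtype replicate 3, knockout replicate 1 or knockout replicate 3 (adjusted p from 0.0557 to 0.11 by edgeR). The 82 cytosolic ribosomal protein genes tested had a median of 0.15 with 76 positive and 0 called, and the smallest p for RPS14, with 566, 700 and 526 CPM in wildtype and 685, 734 and 753 CPM in the knockout (0.28, adjusted p = 0.386 by edgeR), which was called without wildtype replicate 2 (0.41, adjusted p = 0.0113 by edgeR). The 18 proliferation genes had a median of 0.12 and 0 calls, and a median of 0.21 without wildtype replicate 2. TYMS had the smallest p, with 118, 120 and 129 CPM in wildtype and 82.4, 121 and 80.5 CPM in the knockout (-0.37, adjusted p = 0.255 by edgeR), which was called without knockout replicate 2 (-0.58, adjusted p = 0.0287 by edgeR).

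**Figure D5:**
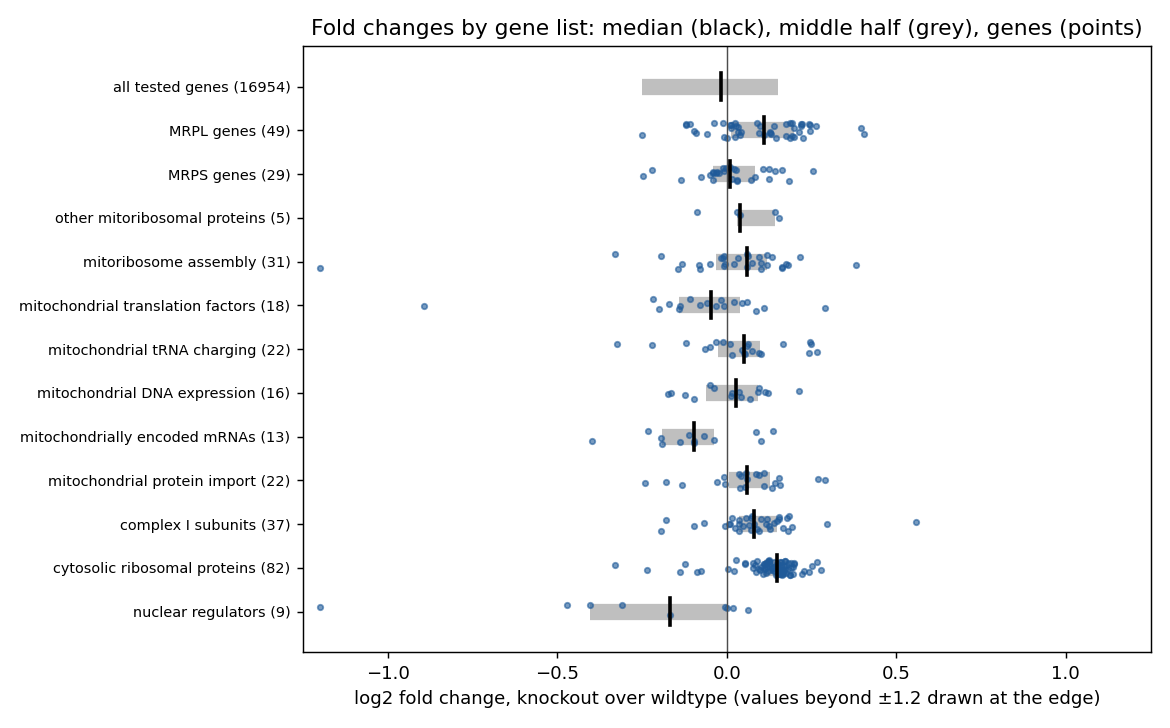
Log2 fold change, knockout over wildtype (x axis), of every gene (points) in each list, with the list's median as a black bar and its middle 50% in grey; points past the limit of the axis are drawn at its edge, which holds FASTKD2 at -6.96 and PPARGC1A at -1.58. MRPL genes have a median of 0.11 and MRPS genes of 0.01, beside 0.15 for cytosolic ribosomal proteins and -0.02 for all 16954 tested genes.

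Depth was not short for these genes: the lowest count of any member in any library was 245, for MRPL53. Over all members the bounds of the 95% intervals ran from -0.52 to 0.69 on the log2 scale.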

How the data were processed

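The values are raw read counts per gene symbol for 6 libraries, whole numbers deposited by the authors with no normalization. Per the labels' protocols, libraries were made from 1 ug of total RNA with a strand-marking kit and read as single reads of 75 nt. The submitters' processing notes name bcl2fastq 2.20 and the build hg19; the aligner, the counter and the annotation were not given in the sources used here.

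Counts were scaled by TMM, filtered by edgeR's expression filter and fitted with edgeR 4.0.16 (R 4.3.3, quasi-likelihood, robust, genotype alone), with Benjamini-Hochberg adjustment over 16954 genes and a threshold of 0.05. Intervals use the SE and the total degrees of freedom of the fit. The pipeline was tested on simulated data. Lengths and GC contents were those of 1 principal transcript per gene in GENCODE release 29, known for 94.1% of tested genes and all 78 members; removed trends were splines with 4 degrees of freedom. Chromosome medians were taken over genes above 3 log2 CPM. Promoters came from RefSeq (GRCh38.p14) by symbol, and nothing was converted between builds.

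Values per library are given for the 6 members of each subunit with the smallest p, the 3 highest and 3 lowest per kb, the MRPS18 paralogs, the stalk and, in each list, called genes (RUNX1 as a mean) or the smallest p. The members and lists were chosen with earlier results of these data known. Alternatives were RLE size factors, upper-quartile scaling, library size alone, DESeq2 1.42.0, limma 3.58.1 voom, no filter, a minimum of 1 CPM in 3 libraries, a block by replicate number, leaving out each library, the 10 most abundant genes left out, a threshold of 0.01, and removal of length and GC trends or chromosome medians. Replicates differed by more than sampling noise in every pair (chi-square per degree of freedom 11.7 to 48.2).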

Additional observations from a re-analysis of the deposited data

How the results depend on the processing

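No member was called lower in any of the alternatives run, and none was called higher except without wildtype replicate 2, which gave 21 (0 to 21 over the fits that leave out 1 library). The 8 mitochondrial context lists held 5, 31, 18, 22, 16, 9, 13 and 22 tested genes. Of these 0 were called higher and 2 lower, against 1.51% and 2.95% of all tested genes. Leaving out 1 library gave 0 to 14 higher, 14 without wildtype replicate 2 and 1 without knockout replicate 2. Those fits called 10.6% and 1.33% of all tested genes higher. Leaving out 1 library also gave 1 to 9 lower, 9 without wildtype replicate 2 and 1 without each other library. Of all tested genes 11.5% were called lower without wildtype replicate 2 and 1.55% to 2.28% without each other library. Library size alone, the filter of 1 CPM in 3 libraries and the threshold of 0.01 each gave 1 lower. No filter, the replicate block and removed length and GC trends each gave 3. Over these settings 1.55% to 4.08% of all tested genes were called lower.

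Among the genes followed through every alternative, signs changed as given here, with the cause not tested; these are log2 differences. Among the other members MRPL50, for one, went from -0.0983 to 0.0976 without wildtype replicate 2. With library size alone MRPL42 was -0.0244, MRPL22 -1e-04, MRPS15 -0.0307 and MRPL12 -0.0376. With upper-quartile scaling MRPS15 was -0.0051 and MRPL12 -0.0118. With length and GC trends removed MRPL42 was -0.0691, MRPS15 -0.0201 and MRPL12 -0.0597. With chromosome medians removed MRPL42 was -0.0302, MRPL22 -0.0192, MRPL12 -0.0497, MRPS14 0.007, MRPS31 0.1007 and CARS2 0.0226. Leaving out 1 library gave -0.0343 to 0.1414 for MRPL42, -0.0414 to 0.204 for MRPL22, -0.0266 to 0.1025 for MRPS15, -0.0691 to 0.0011 for MRPS30, -0.0979 to 0.0697 for MRPS14 and -0.0877 to 0.0871 for MRPL12.

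Wildtype and knockout libraries share replicate numbers in the labels, and also the number that ends their descriptions, whose meaning the labels do not state. Same-numbered libraries deviated together in 2 of 3 pairs (correlations 0.257, 0.408 and -0.23). With 3 libraries per genotype these correlations cannot decide whether the libraries were paired. The main fit used genotype alone, and a fit with the replicate number as a block is given beside it. With the replicate block edgeR called 0 members, with a median log2 fold change of 0.04 and a smallest adjusted p of 0.0624 (MRPL41); over all genes it called 1082 against 756 without it. Not every library correlated best with its own number.

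The limits are 3 libraries per genotype, 1 wildtype library that decides the calls, and unknown strand use in counting. The transcripts are short, in libraries whose length and GC trends differ. Depth did not limit these genes.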
